A study of Arabidopsis thaliana with 4 samples.

Results

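The tiles described here are the array features whose codes run from plate TA35 to plate TA51, a block of 17 successive plate codes in which the histone H3 score lies above the array median over most of its length. Members were taken by code alone, with a value required on all arrays, which gave 1544 of 21732 measured features (7.10%). The block itself was picked because its plate medians were high in both replicates, so its level is a description and carries no test. A tile is a spotted array feature, and its code gives the plate, a row letter and a well number: TA46E12 is plate TA46, row E, well 12. The files do not pair these codes with genes, and the gene table lists 0 of the 1544 codes, so neither genes nor positions nor sequences are given.

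Seedlings of Arabidopsis thaliana ecotype Col-0, 10 days old and untreated, gave chromatin that was precipitated with an antibody to histone H3 and hybridised on 2-colour arrays against its own input DNA. All samples form 1 group, and no mutant, control antibody or treatment was compared. The group has 2 replicates, each hybridised on 2 arrays with the dyes exchanged, making 4 arrays. Whole seedlings hold many cell types, so a score is an average over them. The dye-exchanged arrays of a replicate hold identical values, which leaves 1 value per tile and replicate, and n = 2 throughout. The labels do not state that the replicates are separate cultures, and the spread between them may be technical.

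Histone H3 is a core protein of the nucleosome, the particle around which nuclear DNA is wrapped. An antibody to H3 as such, and not to a modified form of it, is generally used to see where nucleosomes lie and as the baseline for maps of histone marks. In Arabidopsis the compact, repeat-rich chromatin around the centromeres is known for dense nucleosomes, while the promoters of active genes are known for being depleted of them. Which of these the tiles cover cannot be said without their positions.

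All values are the deposited ratio score minus the median of that replicate over all features, in score units. The score is read as a logarithm of the ratio between both channels. The labels settle neither its base nor which channel is the numerator. High and low therefore refer to the score and give no direction for H3 itself, although the replicates run the same way.

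The tiles had a median of 0.25 in replicate 1 and 0.41 in replicate 2, which is 0.33 ± 0.12 (SD, n = 2). The other 20188 features had medians of -0.01 and -0.02. The score did not sit at 1 level across the block. By the mean of both replicates, 315 tiles (20.4%) lay below the array median, 343 (22.2%) between 0 and 0.25, 396 (25.6%) between 0.25 and 0.5, 348 (22.5%) between 0.5 and 0.75, and 142 (9.20%) at 0.75 or more. Among all other features the same shares were 51.7%, 33.6%, 10.0%, 3.38% and 1.35%. The block is thus a broad mixture of low, middle and high tiles, with the middle 50% of tiles spanning 0.06 to 0.57. Above the array median in both replicates lay 1135 tiles (73.5%; 40.5% of all features).

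**Figure D1:**
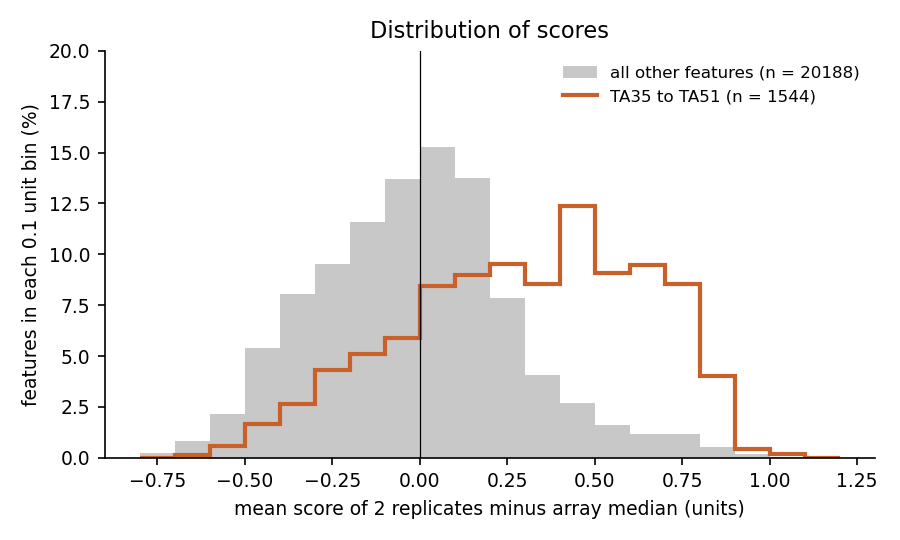
Share of features (vertical axis, %) in bins of 0.1 score units (horizontal axis, mean of 2 replicates minus the array median) for the 1544 tiles of TA35 to TA51 (line) and the 20188 other features (filled). The tiles spread almost evenly from 0 to 0.8, where the other features have a single peak near 0.

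In the fit across all features (limma, Benjamini-Hochberg at 5%), 872 of the 1544 tiles (56.5%) were called above the array median, where 17% of all features were. On the low side 100 tiles (6.48%) were called, where 19.4% of all features were. The low calls depend on the settings: 0 were left with limma's trend and robust variance, where 123 tiles were below at an unadjusted p under 0.05. Without centring 13 were called, but below a raw score of 0 and not below the array median. That median was 0.23 in replicate 1 and 0.13 in replicate 2 before centring. Shares of all features under these settings are not given here. Because the block was chosen on this same contrast, these counts only mark tiles as high or low in what follows. The fit gives every feature the same standard error of 0.11, and the smallest distance called was 0.26. A mean of at least 0.5 above the median was found at 490 tiles (31.7%; 6.65% of all features), and a mean of at least 0.5 below at 11 tiles (0.712%; 3.23% of all features). The second count rests on the replicate used: it was 48 in replicate 2 alone and 2 in replicate 1 alone.

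The profile along the block had peaks, plateaus and dips of many sizes. Plate medians differed by over 0.6 units between the ends of their range. The lowest was TA36, with -0.04 in replicate 1 and 0.06 in replicate 2. TA48 (0.07 and 0.17), TA35 (0.10 and 0.14) and TA46 (0.14 and 0.25) followed. These 4 plates lie at the left end and in the right part of the block.

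The highest plate was TA43, with 0.60 in replicate 1 and 0.72 in replicate 2. TA38 came next with 0.51 and 0.63, then TA47 with 0.42 and 0.59, TA51 with 0.41 and 0.59, and TA42 with 0.34 and 0.59. In TA43 just 1 of 96 tiles was called below, and 87 were called above. High plates were therefore spread over the block from TA38 to its last plate.

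The other plates lay between these groups. TA44 had medians of 0.31 and 0.51, TA39 of 0.30 and 0.48, TA41 of 0.33 and 0.42, TA37 of 0.27 and 0.43 and TA45 of 0.20 and 0.51. TA50 had 0.21 and 0.42, TA40 had 0.24 and 0.36, and TA49 had 0.21 and 0.27. Replicate 2 was the higher in all 17 plates. TA45, where the replicates were farthest apart, had a mean of 0.35 ± 0.22 (SD, n = 2), so its place in this order is uncertain. The order of neighbours such as TA37, TA39, TA41 and TA45, whose means differ by less than their SDs, is not settled either.

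**Figure D2:**
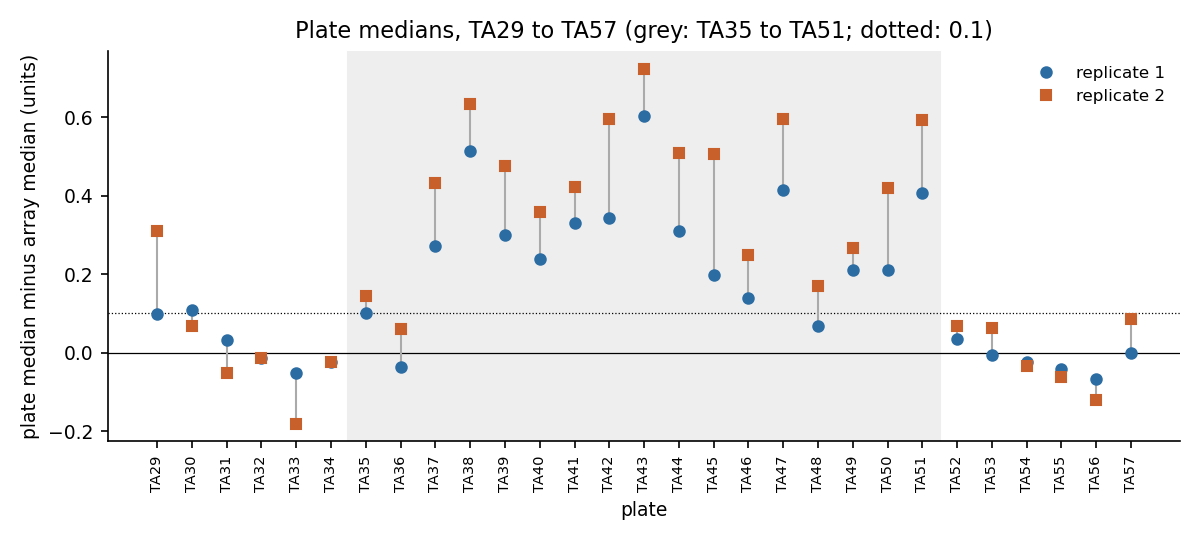
Median score of each plate from TA29 to TA57 (vertical axis, score units relative to the array median) in replicate 1 (circles) and replicate 2 (squares), with a grey line joining both values of a plate. In the shaded block, 15 of 17 plates reach the dotted line at 0.1 in both replicates, and TA36 and TA48 do not.

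Of the 17 plates, 15 had a median of at least 0.1 in both replicates, the level by which high plates were found, and TA36 and TA48 stayed in as gaps of a single plate. At the outer ends, TA35 was just inside at 0.10 and 0.14. TA34, just outside, had medians of -0.02 and -0.02. TA51, the last plate inside, had 0.41 and 0.59, and TA52, the next one, 0.04 and 0.07.

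Most of the variation was at a finer scale than the plate. Within the block, 17.3% of the variance of the tile means lay between plates, 32.7% between rows of the same plate, and 50.1% between tiles of the same row. A full row is 12 successive tiles. Of the 124 full rows, 102 had medians above the array median in both replicates, 12 were below it in both, and 10 had opposite signs. The 12 low rows lay in 8 plates. Row medians of at least 0.5 in both replicates were found in 23 full rows from 10 plates. The lowest full row had a median of -0.24 and the highest one of 0.80.

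**Figure D3:**
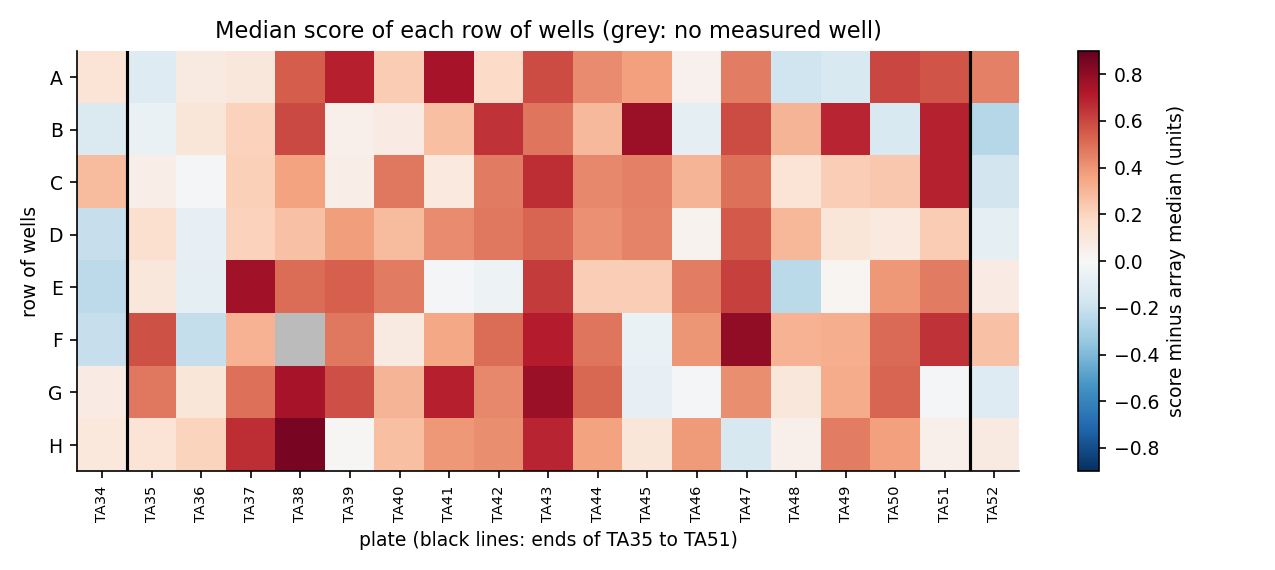
Median score (colour, mean of 2 replicates, score units relative to the array median) of each row of 12 wells (vertical axis) in plates TA34 to TA52 (horizontal axis), with black lines at the ends of TA35 to TA51 and grey where no well was measured. Low rows (blue) sit beside high rows (red) within the same plates, and TA43 is high in every row.

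The left edge was not a single step. The first rows of TA35 lay close to the array median or under it: row A had medians of -0.04 in replicate 1 and -0.17 in replicate 2, and row B 0.03 and -0.12. Row F then reached 0.43 and 0.71 and row G 0.37 and 0.58. After this peak the score went back to 0.11 and 0.11 in row H, and it stayed near the array median through most of TA36, where row F had -0.14 and -0.29. TA37 opened with 4 rows between 0.13 and 0.17 in replicate 1 and between 0.03 and 0.28 in replicate 2. Row E of TA37, with 0.69 and 0.84, opened a series of high rows, and all 12 of its tiles were called above.

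A running median over 25 tiles places this edge well inside the coded boundary. Halfway between the block's median and that of TA29 to TA34 lay 0.13 in replicate 1 and 0.21 in replicate 2. From the left, replicate 1 passed this level at well 12 of row E of TA35, fell back at well 2 of row H and passed it again at well 5 of row H of TA36, after which it stayed above it until TA40. Replicate 2 passed at well 5 of row E of TA35, fell back at well 8 of row H, crossed it briefly in TA36, and stayed above from well 7 of row B of TA37 until TA40. The plates before the block were not uniformly low, since both replicates also exceeded the level in parts of TA29 and TA30. TA29 had plate medians of 0.10 in replicate 1 and 0.31 in replicate 2. Their mean of 0.20 was above those of TA35 (0.12), TA36 (0.01), TA46 (0.19) and TA48 (0.12) inside the block.

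The right edge lay near the coded boundary and came after a part with many dips. The running median of both replicates went under the halfway level at well 12 of row E of TA45. It rose past the level again at well 1 of row D of TA46. From TA47 to TA50 the running median of both replicates went under the halfway level and back several times. Row F of TA51 still had medians of 0.57 and 0.75. Row G had 0.02 and -0.04 and row H -0.00083 and 0.10, each with high and low tiles side by side: in row G 5 tiles were called above and 5 below. The next row, row A of TA52 outside the block, was high again with 0.45 and 0.47. Row B of TA52 then had -0.10 and -0.39, with 6 of its 12 tiles called below. In the running median both replicates went under the halfway level at well 5 of row G of TA51, returned above it in row H, and went under it again at well 11 of row A of TA52. The running median rose past the level again at several points between TA53 and TA57, so single peaks continue beyond the edge. Row F of TA57, with 0.27 and 0.65, was lower than row A of TA52 in replicate 1 and higher in replicate 2.

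**Figure D4:**
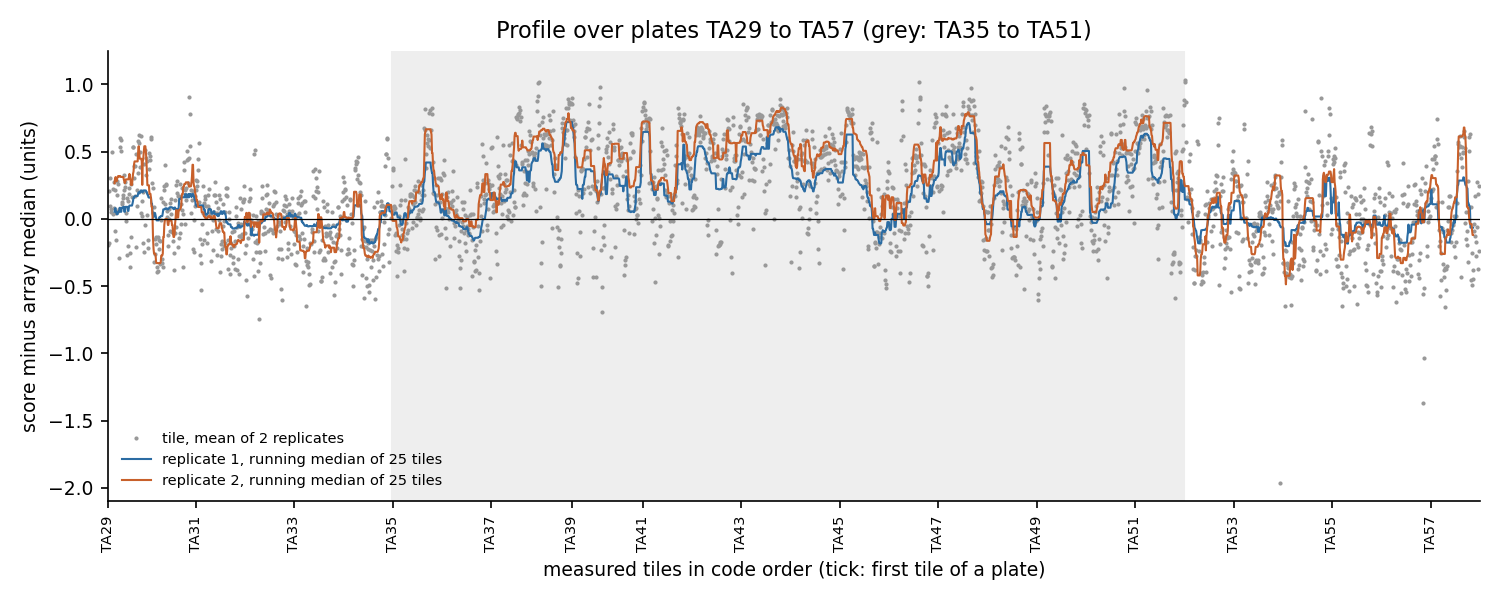
Score relative to the array median (vertical axis, units) of every measured tile from TA29 to TA57 in code order (horizontal axis), as grey points for the mean of 2 replicates and lines for the running median over 25 tiles in each replicate, with TA35 to TA51 shaded. The lines reach 0.72 and 0.83 inside the block, stay near the array median in TA36, and are near or below the array median over much of TA52 to TA57.

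Taken over whole stretches, running medians of at least 0.5 in both replicates occurred at 231 of 1544 positions in the block (15.0%), at 0 of 542 in TA29 to TA34 and at 0 of 564 in TA52 to TA57. Running medians below the array median in both replicates occurred at 68 positions in the block (4.40%), at 175 in TA29 to TA34 (32.3%) and at 284 in TA52 to TA57 (50.4%). Neighbouring windows share most of their tiles, so these are not independent counts. The block was chosen for its level and the plates beside it were not, so the contrast follows from that choice and is not a test. No share over all features stands beside these counts.

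Many of the high tiles lay in stretches. The 872 tiles called above formed 147 stretches of successive measured tiles, 42 of them a single tile, with a median length of 2. No count over all features stands beside these. With 56.5% of the block called above, successive called tiles also occur through its level alone. The 23 stretches of at least 10 tiles held 499 tiles, 57.2% of those called above, and their mean scores ran from 0.43 to 0.71. Of these 23, 20 continued past the end of a row and 4 past the end of a plate. With 12 wells to a row, stretches of this length mostly pass a row end by their length alone.

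The longest stretch covered 70 tiles, from well 11 of row A to well 8 of row G of TA47, with mean scores of 0.54 in replicate 1 and 0.67 in replicate 2. The tile before it had 0.05 and 0.05 and the tile after it 0.18 and 0.08. The next was a stretch of 43 tiles from well 11 of row H of TA50 to well 5 of row D of TA51, with 0.53 and 0.68. The third covered 35 tiles from well 10 of row E to well 8 of row H of TA44, with 0.39 and 0.55. The last of these was flatter and lower than the other 2: its tiles ranged from 0.29 to 0.68, against 0.31 to 0.97 in TA47 and 0.26 to 0.95 in TA50 and TA51.

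Long high stretches ended over short distances. At their 46 ends, the last tile inside had a median of 0.45 and the first tile outside one of 0.08, with a median step of 0.36. A step of at least 0.5 between these neighbours was found at 13 of the 46 ends. The first tile outside was below the array median at 18 of them. A stretch ends by definition where a tile is not called, so these steps describe its borders and are not a test.

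The highest tiles were TA46E12, with 0.95 in replicate 1 and 1.09 in replicate 2, and TA37H10, with 0.99 and 1.04. Their means were 1.02 ± 0.10 (SD, n = 2) and 1.02 ± 0.04 (SD, n = 2). Each was the top of a peak and not an isolated tile. The tile before TA46E12 had a mean of 0.81 and the tile after it 0.91, and the tiles on both sides of TA37H10 had 1.01 and 0.70.

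The lowest tiles were TA40B05, with -0.41 in replicate 1 and -0.98 in replicate 2, and TA49A04, with -0.34 and -0.87. Their means were -0.69 ± 0.40 (SD, n = 2) and -0.60 ± 0.38 (SD, n = 2), so the replicates share the sign but not the depth. TA40B05 lay 3 tiles after a tile with a mean of 0.98 and was the floor of a narrow trough. The tiles before it had 0.19 and -0.23, and the 3 tiles after it -0.51, 0.23 and -0.13. TA49A04 lay in a wider trough that began with -0.56 at the tile before it and was still at -0.37 after 3 tiles. Low scores within the block thus occurred as narrow and as wide dips.

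To describe the low tiles, those at least 0.25 below the block's own median in both replicates were taken, which put the limit close to 0 in replicate 1 and at 0.16 in replicate 2. There were 307 (19.9%), where 46.6% of all features met the same limits. They include all 253 tiles of the block that were below the array median in both replicates (16.4%; 40.5% of all features), and 99 of them were called below it. They fell into 133 stretches: 72 single tiles, 22 pairs and 39 stretches of at least 3 tiles. The 39 stretches lay in 14 plates and held 191 tiles, 62.2% of the low tiles. Their median length was 4, 16 had at least 5 tiles, and 32 held at least 1 tile called below.

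The low tiles were unevenly shared among plates. TA36 held 48 of its 96 tiles, TA48 34 (35.4%), TA46 30 (31.3%) and TA49 26 (27.1%). TA43 held 1, TA37 and TA44 6 each, and TA47 7. The 12 low tiles of TA38 and the 9 of TA39 came from 62 and 42 measured tiles.

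The longest low stretch covered 11 tiles, from well 9 of row D to well 7 of row E of TA36, with mean scores of -0.14 in replicate 1 and -0.04 in replicate 2. None of its tiles was called below (0 of 11), so it was shallow. The next, 10 tiles from well 11 of row E to well 8 of row F of TA36, was deeper at -0.21 and -0.27, with 5 tiles called below. Another stretch in the same plate, 9 tiles from well 7 of row C to well 3 of row D, had -0.13 and -0.25, with 4 called below. By the limits used for low tiles, TA36 thus held successive low stretches. Its share of low tiles was 50%, where 46.6% of all features met the limits. In TA36 14 of 96 tiles were called below, where 19.4% of all features were.

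A stretch of 10 tiles from well 10 of row A to well 7 of row B of TA50 had -0.09 in both replicates, with no tile called below (0 of 10). In TA38, 9 tiles from well 10 of row C to well 6 of row D had -0.17 and -0.30, with 3 called below. This dip was bounded on its right by an abrupt change: the next tile had 0.63 and 0.72 and opened a stretch of 27 tiles called above, with mean scores of 0.68 and 0.74, which ran on into TA39. Wells without a value lie within that stretch.

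The wide dip around TA49A04 covered 8 tiles, from well 3 to well 10 of row A, with -0.17 and -0.49 and with 5 called below. Another 2 stretches had 8 tiles and higher means, 1 in row E of TA48 and 1 from row H of TA47 into row A of TA48. Shorter dips went lower: the 3 tiles from well 4 to well 6 of row B of TA40 had the lowest mean of the 39, at -0.48. By the call against the array median, which trend and robust variance would end, the 100 tiles called below formed 59 stretches, 39 of them single tiles, and the longest had 5 tiles.

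Dips located in a single replicate were also read in the other. Low tiles picked in replicate 1 alone numbered 351 (22.7% of the block), and 87.5% of them were low in replicate 2. Those picked in replicate 2 alone numbered 467 (30.2%), and 65.7% of them were low in replicate 1. Over all features, 50% and 66.9% were under the same limits, and the shares shared were 93.2% and 69.7%. Replicate 1 alone gave 46 stretches of at least 3 low tiles, all 46 of which had a mean under the block's median in replicate 2, and in 44 it was at least 0.25 under it. Replicate 2 alone gave 61 such stretches, all 61 under the block's median in replicate 1 and 48 by at least 0.25. These shares describe the likeness of the replicates and are not a test, since both entered the choice of the block.

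Replicate 2 spread more widely than replicate 1 in the block, as on the rest of the array. In tiles with a mean under -0.25 the medians were -0.23 in replicate 1 and -0.48 in replicate 2 (104 tiles). In tiles from -0.25 to 0 they were -0.08 and -0.14 (211 tiles). In tiles from 0.25 to 0.5 they were 0.30 and 0.48 (396 tiles). In tiles of at least 0.75 they were 0.74 and 0.87 (142 tiles). The residual SD was 0.22 in the 104 lowest tiles, 0.12 from -0.25 to 0, 0.13 from 0 to 0.25, 0.17 from 0.25 to 0.5, 0.15 from 0.5 to 0.75 and 0.13 at 0.75 or more. The replicates were thus farthest apart in the deepest tiles. Other features had residual SDs of 0.21 under -0.25 and 0.11 at 0.75 or more. Across the 1544 tiles the replicates correlated with r = 0.89 (Spearman's rho = 0.91), a description across tiles that share arrays.

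Tiles close in the code were alike. The mean scores of successive wells correlated with r = 0.74 within the block (1514 pairs), and with r = 0.57 within TA52 to TA99 (4595 pairs). At 4 wells apart the values were 0.40 and 0.16, and at 8 wells 0.28 and 0.12. With plate medians removed, the block gave 0.70 for successive wells, 0.28 at 4, 0.13 at 8 and 0.02 at 12. TA52 to TA99 treated in the same way gave 0.54, 0.09, 0.04 and 0.02, so after this removal the coefficients at 12 wells were near 0 in both. Without the removal, the block had 0.19 at 12 wells and 0.17 at 24. TA52 to TA99 had 0.09 and 0.04 there. A tile in replicate 1 and the next tile in replicate 2 correlated with r = 0.67 in the block and 0.47 in TA52 to TA99. These coefficients are across tiles of the same arrays, and the difference between both sets of plates was not tested.

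**Figure D5:**
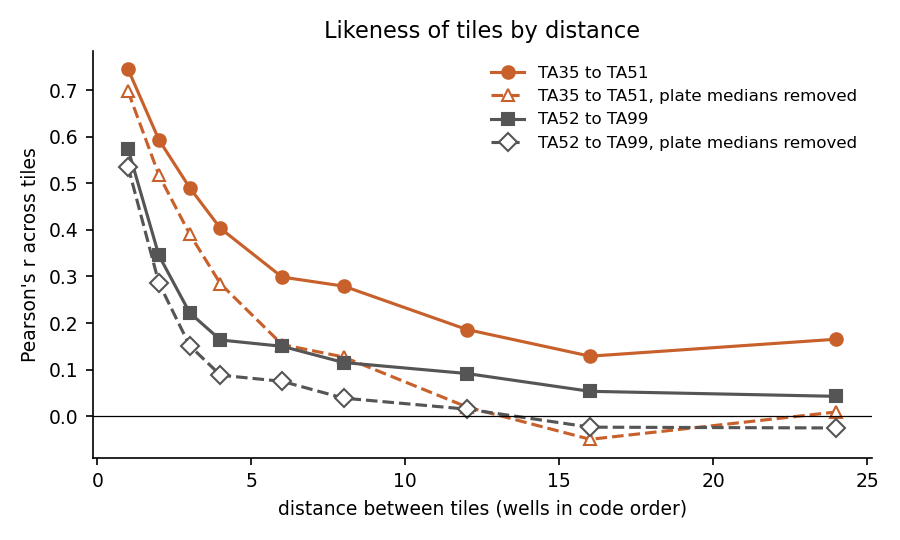
Pearson's r across tiles (vertical axis) against the distance between the tiles in wells (horizontal axis), for the mean score of 2 replicates in TA35 to TA51 as measured (filled circles) and after removal of plate medians (open triangles), and in TA52 to TA99 as measured (squares) and after removal of plate medians (open diamonds). The block starts at 0.74 and is at 0.40 at 4 wells, where TA52 to TA99 goes from 0.57 to 0.16.

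Steps between successive wells were of similar size inside and outside. Within rows the median step was 0.12 units in the block (1390 steps) and 0.13 elsewhere (18432 steps), and 4.82% and 4.14% of these steps were at least 0.5. Across row ends the median step in the block was also 0.12 (110 steps). Across the 14 plate ends where both wells were measured it was 0.24, with 2 steps of at least 0.5. With 14 steps, and plates that were chosen by level, this larger value is a description, and a part of plate handling in it was not tested.

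Set beside the other high blocks of the array, the tiles were intermediate. TA22 to TA28 (623 tiles) had medians of 0.14 and 0.31, and TC17 to TC30 (1120 tiles) of 0.42 and 0.58. The upper ends were close: the 95th percentile of the tile means was 0.79 in TA35 to TA51, 0.76 in TA22 to TA28 and 0.85 in TC17 to TC30. The 25th percentiles were 0.06, 0.01 and 0.26. The middle 50% of tiles spanned 0.51 units in TA35 to TA51, 0.44 in TA22 to TA28 and 0.44 in TC17 to TC30. The 3 blocks were all chosen for their level, so these differences were not tested.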

How the data were processed

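The authors deposited a ratio score for each feature and array, from 2-colour hybridisations of amplified DNA with direct Cy3 and Cy5 labelling, per the labels' protocols. How the score was normalized, its log base and numerator, the array design and the genome build were not given in the sources used here. Dye-swap arrays were averaged into 1 value per replicate (they are identical), and each replicate was centred on its median over 21732 features (0.23 and 0.13 before centring). The distance of each feature from zero was tested in limma 3.58.1 (lmFit, then eBayes; R 4.3.3), fitted and adjusted by Benjamini-Hochberg over all features, and tested on simulated data. The simulated data had the same spread in every feature, so they do not cover the larger spread of the lowest tiles. The prior degrees of freedom were infinite, so a tile's own spread played no part in its call. The array number limits the precision, and read depth does not apply. The score is not known to be a log2 value, and the same test was kept.

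The block and all rules were chosen with earlier results of these data known. Codes were named for the 2 highest and 2 lowest tiles with the same sign in both replicates, and stretches by length (the 6 longest low with ties taken by the lower mean, the 3 longest high). Stretches named beyond these, and rows away from the edges, were chosen after their values were seen. Stretches follow measured tiles across row and plate ends. Alternatives covered centring, scaling, quantile normalization, the variance model, thresholds and each replicate left out. Summaries and plots were made in Python 3.11.15 with pandas 2.3.3, numpy 2.4.6 and matplotlib 3.10.9.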

Additional observations from a re-analysis of the deposited data

How the results depend on the processing

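Centring on the mode was chosen after seeing the data. Without centring, scores are set against a raw score of 0 and not against the array median. The array median was 0.23 in replicate 1 and 0.13 in replicate 2 before centring, so that setting moves the reference level for every feature. The count of tiles called above (872) ran from 677 with trend and robust variance to 1089 without centring, and the number of plates at least 0.1 above in both replicates (15) from 14 to 17. The count called below (100) was less stable: 13 without centring, 64 at the 1% threshold, and 44 with both replicates at least 0.25 from the median and no test. It was 0 with limma's trend and robust variance, where 123 tiles were below at an unadjusted p under 0.05. Scaling, quantile normalization and the mode gave 127, 147 and 123. The median of the block (0.33) was 0.52 without centring and 0.27 with centring on the mode. The 39 low stretches became 61 with at least 2 tiles and 16 with at least 5. With 1 replicate left there is no test: low stretches numbered 46 to 61, and tiles at least 0.5 below the median (11) 2 to 48, the lower values without replicate 2. The other causes of change were not tested. Shares of all features called under each setting are not given, so no change in these counts is read as particular to the block. No paired analysis was possible because there is 1 group. Distances under 0.26 were not called, and single low tiles are limited by the difference between the replicates.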

Other observations

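Missing wells were confined to a short part of the block. The 17 plates would hold 1632 wells, and 88 had no measured value, all of them in TA38 (34 wells) and TA39 (54 wells), while the other 15 plates were complete. None of the 88 is listed in the deposited table (0 listed without a value). The gaps open in row E of TA38, where 2 of 12 wells were measured, and row F of that plate has no measured well. The rows with gaps that follow were among the highest: row G of TA38 had medians of 0.81 in replicate 1 and 0.73 in replicate 2 over 6 tiles, and row H 0.82 and 0.89 over 6 tiles. Rows B and C of TA39, also with gaps, had -0.06 and 0.15 over 5 tiles and 0.03 and 0.10 over 7. Whether missing wells and level are related was not tested.

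Medians by well position differed within the block (1544 tiles). By well number the median score ran from 0.27 (well 11) to 0.40 (well 1), and by row letter from 0.24 (row A) to 0.44 (row F). In the 19872 other features with codes of the same form the ranges were -0.02 to -0.00120 and -0.03 to 0.01. Each median in the block rests on fewer tiles, so the widths of these ranges are not on equal terms. The long stretches described above enter the block's medians. Neither their part in these differences nor that of well position was tested.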
